A study of Mus musculus with 2 samples.

Results

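The genes described here are 9 markers of the layers of the cerebral cortex: Cux1, Cux2, Rasgrf2, Lamp5 and Rorb of the upper layers and layer 4, and Fezf2, Bcl11b, Tbr1 and Foxp2 of the deep layers. They were found by gene symbol in the deposited table, which held 30920 genes, and each had 1 probe set. RNA of 2 male C57BL/6 mice was hybridised to a whole-transcript mouse gene array, 1 mouse given the copper chelator cuprizone, which kills oligodendrocytes, and 1 control mouse. The labels give a diet with 0.2% cuprizone for 6 weeks, a sentence attached to both samples, and cerebellum as the tissue, and no age. The sample titles say mouse brain, without a region. The cuprizone sample also carries the tag CPZ-5, which the labels do not explain. The authors deposited log2 RMA values, that is background-corrected probe signals put on a common distribution and summarised per probe set. With 1 array per group no value has an error between samples and no test was possible, so each difference describes these arrays, and their number limits the precision.

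The cerebral cortex is built of stacked layers of excitatory neurons, each layer with its own inputs and targets. Neurons of the upper layers connect cortical areas with each other, layer 4 receives input from the thalamus, layer 5 projects to the brainstem and spinal cord, and layer 6 projects back to the thalamus. Transcription factors such as Fezf2 and Tbr1 set these identities in development and repress those of other layers, and many of them stay on in the adult cortex. Several are not confined to the cortex: Bcl11b is also made by striatal projection neurons, Foxp2 by striatal, thalamic and Purkinje neurons, and Rorb by thalamic neurons. The cerebellum has no such layers, its cortex being made mainly of granule cells, Purkinje cells and a few kinds of interneuron.

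All 9 members lay above background on both arrays, and 8 of them differed by at most 0.12 log2 between the arrays. The exception was Lamp5, which was lower on the cuprizone array by 0.41 log2. Levels ran from 5.03 to 7.48 log2 on the cuprizone array and from 5.10 to 7.49 log2 on the control array. Background was set from 1420 olfactory or vomeronasal receptor genes, nearly silent in brain, as the level that the top 2.5% of them exceed, and it stood at 4.71 log2 on the cuprizone array and 4.68 log2 on the control array. Of all 30920 genes, 40.9% lay above this bound on both arrays. Probe sets bind their targets with different strength, so the levels of different genes are not ranked here.

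**Figure D1:**
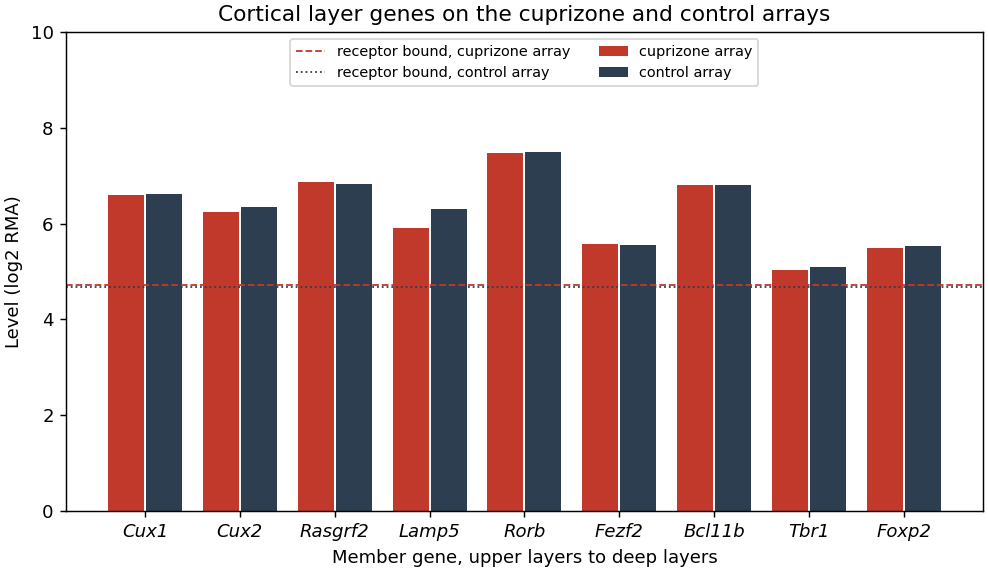
Level of each member (log2 RMA) on the cuprizone array (red) and the control array (dark), with 1 array per group and the receptor bound of each array as a dashed or dotted line. All bars end above the bounds of 4.71 and 4.68, and Lamp5 has the largest step between its bars, 5.90 on the cuprizone array and 6.32 on the control array.

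Cux1 and Cux2, paralogous homeodomain factors of layers 2 to 4 that shape dendrites and spines, had close values on both arrays. Cux1 was at 6.60 log2 on the cuprizone array and 6.61 log2 on the control array, a difference of -0.01. Cux1 lies on chromosome 5 from 136248135 to 136567487 on the minus strand and was read by 34 probes, the most of any member. This locus also encodes a Golgi protein from shared exons and is active in many cell types, so its level is not a measure of upper-layer neurons alone. Cux2, which is more restricted to upper layers, had a level of 6.23 log2 on the cuprizone array and 6.35 log2 on the control array. Its difference of -0.12, or 1.09-fold lower, was the second largest of the members in absolute size. Even so, 57.7% of measured genes differed by at least as much, where measured means that the higher value reached 4.34 log2, the median of all values. Cux2 is on the same chromosome, from 121858387 to 122050102 on the minus strand.

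Rasgrf2 encodes an exchange factor that activates Ras and Rac below calcium and glutamate receptors, and its transcript marks the upper layers. It had a level of 6.86 log2 on the cuprizone array and 6.82 log2 on the control array, a difference of 0.04, the highest of the members. Rasgrf2 lies on chromosome 13 from 91880400 to 92131656 on the minus strand. Rorb encodes an orphan nuclear receptor that marks layer 4 and the sensory thalamus and is needed for the clustering of layer 4 neurons around thalamic axons. Its level was 7.48 log2 on the cuprizone array and 7.49 log2 on the control array, a difference of -0.01. It lay above the background bound by 2.77 log2 on the cuprizone array and 2.81 log2 on the control array. Rorb lies on chromosome 19 from 18930605 to 19111196 on the minus strand.

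The start regions of Rorb and Rasgrf2 are shown because theirs are the windows, of those in the RefSeq promoter table (build GRCm38.p6), that lie wholly outside the gene in both annotations. Each line gives the 250 bases before the start, on the minus strand and 5′ to 3′, at chr19:19111197-19111446 for Rorb and chr13:92131829-92132078 for Rasgrf2. Capitals mark the GC box GGGCGG and the CCAAT box, read on either strand.
Rorb: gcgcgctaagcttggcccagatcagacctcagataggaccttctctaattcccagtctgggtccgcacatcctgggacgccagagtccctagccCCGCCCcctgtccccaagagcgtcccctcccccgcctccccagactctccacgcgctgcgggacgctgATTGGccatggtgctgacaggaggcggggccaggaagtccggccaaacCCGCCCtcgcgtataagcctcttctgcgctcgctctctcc
Rasgrf2: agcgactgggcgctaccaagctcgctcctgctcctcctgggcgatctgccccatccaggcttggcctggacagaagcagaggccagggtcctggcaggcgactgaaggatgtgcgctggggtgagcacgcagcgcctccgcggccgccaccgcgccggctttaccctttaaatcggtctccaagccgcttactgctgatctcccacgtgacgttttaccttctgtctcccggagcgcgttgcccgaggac
The Rorb window held 2 GC boxes, which began 156 and 40 bases before the start, and 1 CCAAT box, which began 88 bases before it. The Rasgrf2 window held neither, and it had 22 CpG dinucleotides against 18 in the Rorb window. Both windows are rich in CpG beside the median of 6 over all 32851 windows in the table. The table had 11 windows for 8 of the members, all but Foxp2. Among these 11, GGGCGG was found in 3 and CCAAT in 2, while 32.7% and 33.8% of all windows hold them. The homeodomain core TAATTA was found in 1 of the 11, that of Tbr1, where it began 33 and 18 bases before the start, and 4.84% of all windows hold it. TATAAA was found in 1, the inner start of Cux2, against 12.4% of all windows. The 4 motifs were searched on both strands and had been picked with the sequences in view, no matches overlapped in the members' windows, and a match is not a binding site.

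Lamp5 differed most of the members. It encodes a membrane protein related to the lysosomal LAMP family that sits in vesicles of the axon and dendrites, and it marks upper-layer pyramidal neurons and, among interneurons, neurogliaform cells. It had a level of 5.90 log2 on the cuprizone array and 6.32 log2 on the control array, which is 1.33-fold lower on the cuprizone array. It was above the receptor bound on both arrays, by 1.20 log2 on the cuprizone array and 1.63 log2 on the control array. Its 27 probes were annotated as unique, on chromosome 2 from 136052239 to 136069917 on the plus strand. Of the measured genes, 8.89% differed by at least as much in either direction, and 4.36% had a difference as low or lower. Among the 4522 measured genes within 0.5 log2 of its mean level, 5.396% differed by at least as much. It did not reach the 1.5-fold threshold used here for a count, except when the arrays were scaled on the hybridization or the poly-A spike-ins, where it was 1.59-fold and 1.72-fold lower. Those scalings also moved the median of all measured genes to -0.27 and -0.39. Relative to the median of all measured genes, Lamp5 lay between -0.38 and -0.40 under the 8 alternatives tried for it. Most of these could not have moved it. Median centring and the spike-in scalings shift all genes of an array alike, and the other table holds the same values. The probe set alternatives cannot change a gene with 1 unique probe set. Only lowess and quantile normalization could, and they gave -0.384 and -0.387. In whole tissue, fewer cells of a type and less RNA per cell cannot be told apart.

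The deep-layer factors had a smaller spread of differences, from -0.07 to 0.02 over 4 genes, beside -0.41 to 0.04 over the 5 upper-layer and layer 4 genes, a range that Lamp5 sets and that is -0.12 to 0.04 without it. Fezf2, the zinc finger factor that specifies corticospinal neurons of layer 5, had a level of 5.57 log2 on the cuprizone array and 5.55 log2 on the control array. Bcl11b, also called Ctip2, which acts below Fezf2 in these neurons, had a level of 6.80 log2 on the cuprizone array and 6.82 log2 on the control array. The differences were 0.02 for Fezf2 and -0.02 for Bcl11b. Fezf2 lies on chromosome 14 from 12341892 to 12345865 and Bcl11b on chromosome 12 from 107910403 to 108003602, both on the minus strand.

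Tbr1, the T-box factor that gives layer 6 neurons their thalamic projection, lay closest to the background bound. Its level was 5.03 log2 on the cuprizone array and 5.10 log2 on the control array, a difference of -0.07. It cleared the receptor bound by 0.32 log2 on the cuprizone array and 0.42 log2 on the control array. With the 99th percentile of the receptor genes as the bound, it fell just short on the cuprizone array, at 5.031 against a bound of 5.035 log2, and the other 8 members stayed above on both arrays, as did 10281 of the 30920 genes. Tbr1 lies on chromosome 2 from 61802930 to 61814114 on the plus strand. Foxp2, the forkhead factor of layer 6 that is known for its part in vocal learning, had a level of 5.48 log2 on the cuprizone array and 5.54 log2 on the control array, a difference of -0.05. Foxp2 lies on chromosome 6 from 14901349 to 15441977 on the plus strand. The labels and files used here name no genome build for these positions, but all 9 overlap the same gene in GRCm38.p6, as do 98.98% of 25448 genes matched by gene ID.

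The detection calls depend on which background is used. The array also carries 23 antigenomic probe sets, which match no mouse sequence, with medians of 2.29 log2 on the cuprizone array and 2.40 log2 on the control array, but the brightest of them reached 6.07 log2 on the cuprizone array and 6.08 log2 on the control array. Cux1, Cux2, Rorb, Bcl11b and Rasgrf2 lay above the brightest on both arrays, whereas Fezf2, Tbr1 and Foxp2 lay below it on both and Lamp5 only on the cuprizone array. Intron control probe sets, which also read unspliced transcripts, give a stricter bound of 6.83 log2 on the cuprizone array and 6.75 log2 on the control array, and 2 members, Rorb and Rasgrf2, exceeded it on both, as did 7.49% of all genes. All 9 probe sets were annotated as unique to their gene, with 17 to 34 probes each.

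Counted together, 0 of the 9 members passed the 1.5-fold threshold upward and 0 downward, where 1.6% and 1.35% of 16559 measured genes did. None of the 9 passed 2-fold either, where 0.223% passed it upward and 0.127% downward. With shares this low among all genes, a count of 0 in 9 is near the background. The median difference of the members was -0.02, beside -0.01 over all measured genes. As deposited, 7 members were lower and 2 higher, but the signs of the small differences turned with the scaling: 4 were lower and 5 higher with the level-dependent trend removed, and 9 were lower with either spike-in scaling. Lamp5 was lower under each of these settings. Scaling on hybridization spike-ins put 78 measured genes past 1.5-fold upward and 1287 downward, and poly-A spike-ins put 41 and 2922 there, beside 265 and 223 as deposited.

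**Figure D2:**
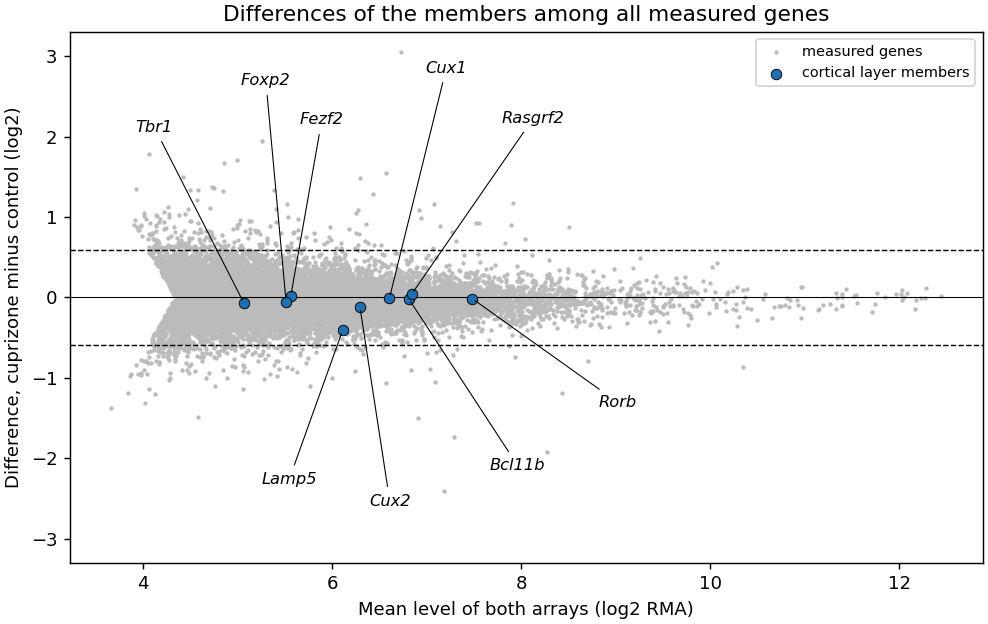
Difference, cuprizone minus control (log2), against the mean level of both arrays (log2 RMA) for the 16559 measured genes (grey) and the 9 members (blue), with dashed lines at 1.5-fold. Lamp5, at -0.41, is the member farthest from 0, and the other 8 lie within 0.12 of it.

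Other layer genes were read from lists of cortical markers that hold none of the members. Across the 4 lists, 39 of 41 genes lay above the receptor bound on both arrays, where 40.9% of all genes did. Of the 41, 0 were at least 1.5-fold higher or lower. Of measured genes 1.6% were higher and 1.35% lower by that much, so this count is near the background. Above the intron bound on both arrays were 2 of 11 upper-layer and layer 4 genes and 1 of 10 layer 5 genes. For layer 6 it was 0 of 10, and for cortical excitatory neurons 5 of 10. The list of upper-layer and layer 4 genes had a median difference of -0.20, against -0.45 when scaled on hybridization spike-ins and -0.57 when scaled on poly-A ones. Of its 11 genes 8 were lower and 2 higher as deposited, where 51.6% of all measured genes were lower. Its largest differences were those of Rspo1, a Wnt signal enhancer used as a layer 4 marker, at -0.44, the potassium channel gene Kcnh5 at -0.34 and the sodium channel subunit Scnn1a, also of layer 4, at -0.24. The upper-layer members other than Lamp5 did not lie that low, with values from -0.12 to 0.04. These genes and the members share the same arrays, so they are no independent check of each other.

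Layer 5 genes had a median difference of 0.03 over 10 genes, as deposited, against -0.22 when scaled on hybridization spike-ins and -0.34 when scaled on poly-A ones. Npr3, a natriuretic peptide receptor found in a set of layer 5 neurons, differed most, by 0.37, whereas Pcp4, a calmodulin-binding peptide of layer 5 and other neurons, differed by -0.12. Layer 6 genes had a median of -0.07 over 10 genes, and their largest differences ran both ways. These were 0.41 for Cplx3, a complexin of the deepest sublayer, 0.38 for Nxph4 and -0.26 for Syt6. On the control array Cplx3 lay within background. Nxph4, at 4.79 log2 there, was just above the bound of 4.68, so both of these differences are near the floor. Genes of cortical excitatory neurons in general had a median of 0.04 as deposited, which also turned negative with both spike-in scalings, at -0.21 and -0.33. Camk2a, the kinase subunit of excitatory synapses, had a level of 9.669 log2 on the cuprizone array and 9.597 log2 on the control array, and Slc17a7, the vesicular glutamate transporter of cortical neurons, 8.44 and 8.34 log2 on these arrays.

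**Figure D3:**
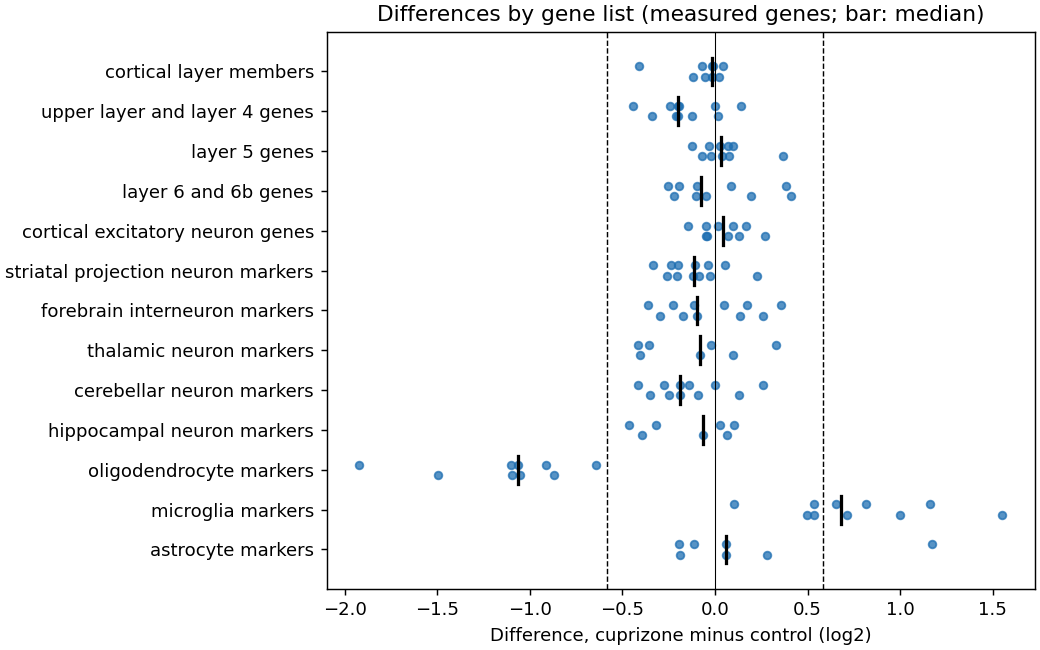
Difference, cuprizone minus control (log2), of each measured gene in the members and 12 marker lists, with a black bar at the list median and dashed lines at 1.5-fold. The members centre on -0.02, the upper-layer list on -0.20, and the oligodendrocyte and microglia lists on -1.07 and 0.68.

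The labelled tissue was set against markers of cerebellar and striatal neurons. Of all genes, 40.9% lay above the receptor bound on both arrays. All 9 cortical members did, beside 5 of 16 cerebellar neuron markers, and 9 of these 16 lay within background on both arrays. Those within it included Gabra6, the GABA receptor subunit of granule cells, Pcp2 of Purkinje cells, and Cbln3, a granule cell synapse protein, at 4.21 log2 on the cuprizone array and 4.35 log2 on the control array. En2, the homeobox gene of the midbrain and hindbrain boundary, was also within background, at 3.29 log2 on the cuprizone array and 3.06 log2 on the control array. These 4 genes were singled out after their values had been seen. Among the 5 above it was Itpr1, a calcium release channel that forebrain neurons make too. Fezf2, which the adult cerebellum is known to make little of, lay above the bound by 0.86 log2 on the cuprizone array and 0.87 log2 on the control array. It lay below the brightest antigenomic probe set and the intron bound on both arrays. Defining markers within background, such as Gabra6 and Pcp2, go against the cerebellum label. Above the stricter intron bound on both arrays were 1 of the 16 cerebellar markers and 2 of the 9 members. The contrast between these counts therefore rests on the receptor bound. The sample titles say only mouse brain, and no other region is proposed here for the arrays. Of the 11 cerebellar markers that count as measured, 4 lay within background on both arrays.

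**Figure D4:**
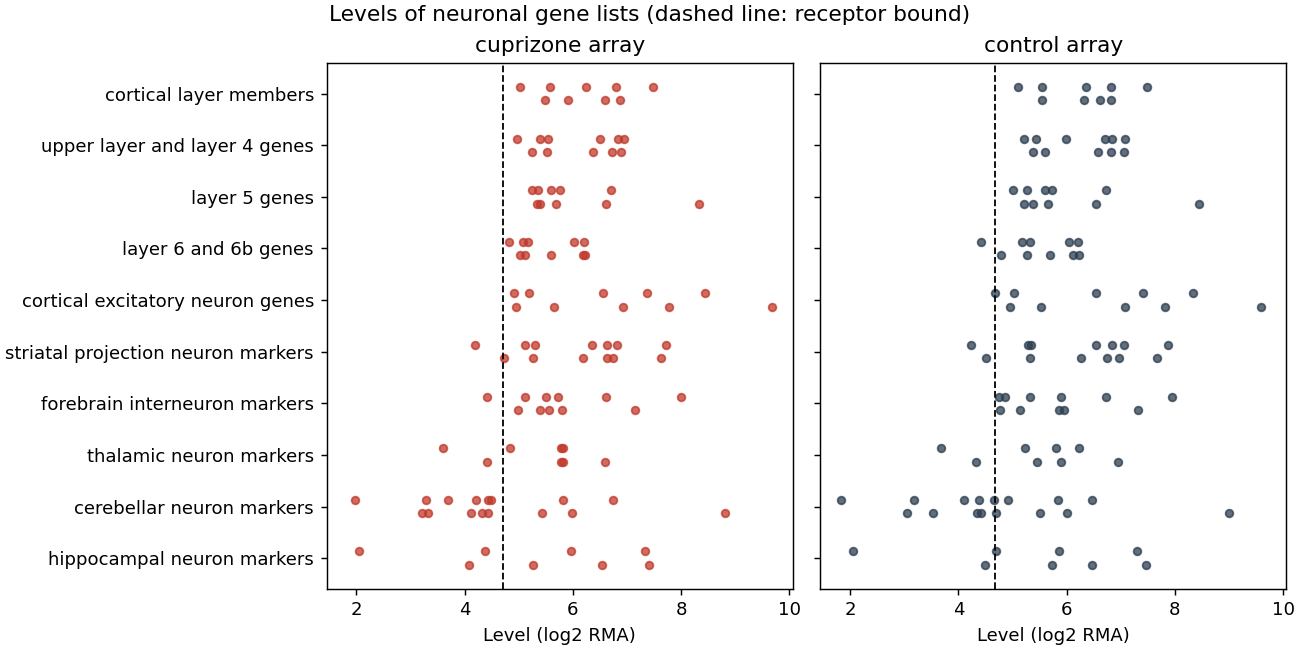
Level (log2 RMA) of each gene of the members and 9 neuronal lists on the cuprizone array (left) and the control array (right), with the receptor bound of each array dashed. All 9 members lie right of the line on both arrays, and 9 of the 16 cerebellar markers lie left of it on both.

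Of 13 markers of striatal projection neurons, which also make Bcl11b and Foxp2, 11 lay above the receptor bound on both arrays. Of all genes, 40.9% did. Tac1 lay within background on both arrays, at 4.20 log2 (cuprizone) and 4.24 log2 (control), and Isl1 on the control array, at 4.51 log2. Only 2 of the 13 markers lay above the intron bound on both arrays. Their median difference was -0.11 as deposited, and -0.37 and -0.49 on the hybridization and poly-A spike-ins. Of 12 measured markers 10 were lower as deposited, where 51.6% of all measured genes were. In either direction 0 passed 1.5-fold, where 1.6% of measured genes did upward and 1.35% downward. Penk, the enkephalin precursor, had a level of 7.62 log2 on the cuprizone array and 7.88 log2 on the control array. How much of the Bcl11b and Foxp2 signal came from cortical and how much from striatal neurons was not tested.

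As deposited, oligodendrocyte and microglia markers had larger median differences than the layer lists, at -1.07 and 0.68. All 9 oligodendrocyte markers were lower by 1.5-fold or more, where 1.35% of measured genes were. Their summed linear level was 1519 on the cuprizone array and 3208 on the control array. Opalin, 1 of the 9, lay within background on the cuprizone array, at 4.20 log2. All 10 microglia markers were higher as deposited, 6 of them by at least 1.5-fold, where 1.6% of measured genes were. Their summed linear level was 1217 on the cuprizone array and 707 on the control array. Scaled on the hybridization and poly-A spike-ins, the microglia median was 0.43 and 0.31. That is smaller in size than the -0.45 and -0.57 of the upper-layer and layer 4 list. The oligodendrocyte median was -1.32 and -1.44 with these scalings. The part of these shifts in the difference of Lamp5 was not tested. The summed level of the forebrain interneuron markers, the other cell class that makes Lamp5, was 827 on the cuprizone array and 852 on the control array.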

How the data were processed

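The authors deposited log2 values per probe set. The submitters' processing notes name RMA and Affymetrix Power Tools, without a version. Genome build and annotation release: not given in the sources used here. The 2 deposited tables had 41345 probe sets in common and agreed to within 5e-05. Array medians were 4.36 (cuprizone) and 4.33 (control).

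For genes with several probe sets the one with the highest mean of both arrays was used. Differences are cuprizone minus control with no further centring. No test, p-value or SD was computed, since each group had 1 array. Promoter windows came from a RefSeq table of GRCm38.p6. The members and lists were chosen with earlier results of these data known. Named besides the members were the 3 measured genes of each list with the largest absolute difference and, for cortical, striatal, thalamic and cerebellar lists, the 3 with the highest mean level; exceptions are marked in the text or were listed to account for a count. No genes were named as most alike, because 2 arrays give no pattern. Alternatives covered scaling, the other table, probe sets, level filters, the fold and the background bound. Python 3.11.15, pandas 2.3.3 and statsmodels 0.14.6 were used. Some genes that the naming rule selects are not reported here.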

Additional observations from a re-analysis of the deposited data

How the results depend on the processing

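The median difference of the members moved with the arrays scaled on hybridization spike-ins (-0.27) and on poly-A spike-ins (-0.39), as did that of all measured genes, and with either of these 1 member, Lamp5, was at least 1.5-fold lower. A change was counted as a move past 0.1 log2. With the intron control probe sets as background, an alternative added after the data were seen, 2 members lay above the bound on both arrays, as did 7.49% of all genes. The other alternatives left the counts of members past the fold at 0 and the median within 0.1 log2, those being median centring, lowess (span 0.2), quantile normalization, the other table, the mean of probe sets, leaving out cross-hybridising probe sets, no level filter, the 75th percentile filter, which kept 7 members, a 2-fold threshold and, added later, leaving out Lamp5. Lowess turned the median to 0.01. Of all genes, 881 were at least 1.5-fold higher and 618 lower with no level filter, 85 and 78 with the 75th percentile filter, and 37 and 21 were past 2-fold. No paired analysis was possible because each group has 1 array. Array number and signal over background limit all values, most for Tbr1.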

Other observations

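Lists for other neurons that make some of the members gave these values. Thalamic neuron markers, which bear on Rorb and Foxp2, had a median difference of -0.08 over 7 measured genes, with 5 lower and 2 higher. Above the receptor bound on both arrays were 6 of 8, where 40.9% of all genes were. Above the intron bound on both arrays were 0 of 8. Slc17a6, the glutamate transporter of thalamic and brainstem neurons, had a level of 5.81 log2 on the cuprizone array and 6.23 log2 on the control array. Rora, the nuclear receptor related to Rorb, was at 6.59 log2 on the cuprizone array and 6.95 log2 on the control array, a difference of -0.36, beside -0.01 for Rorb. Tcf7l2, named outside the naming rule because it went the other way, differed by 0.33. Forebrain interneuron markers had a median of -0.10 over 11 genes, with 5 higher and 6 lower. Among them Dlx5 differed by 0.36 and its genomic neighbour Dlx6 by -0.36, and Gad1, an enzyme of GABA synthesis, by -0.30. The Dlx6 value on the cuprizone array, 4.41 log2, was within background. On the control array Dlx5, at 4.75 log2, was just above the bound of 4.68, so both differences are near the floor. Hippocampal neuron markers had a median of -0.07 over 7 measured genes, with -0.47 for Prox1, the homeobox gene of dentate granule cells. Astrocyte markers had a median of 0.06 over 7 genes, which turned to -0.20 on scaling by hybridization spike-ins and -0.32 by poly-A ones, and Gfap differed by 1.17. None of these lists was tested.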
